A study of Bos taurus with 6 samples.

Results

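The superficial zone (SZ) and the deep zone (DZ) are the 2 ends of articular cartilage, the joint surface and the layer next to the bone, and the comparison between them uses 4 of the 6 arrays of the study. Its members were chosen by the zone named in each sample's title, with 2 SZ and 2 DZ arrays, and each SZ array was paired with the DZ array of the same animal through the replicate number. All 24016 probesets that are not controls were compared. The tissue was normal cartilage (grade 1) of the femoral condyles in the knees of skeletally mature cattle aged 14 to 30 months. The animals bear no allele or treatment in the labels, and replicate 1 is the animal called bov1 and replicate 2 the animal called bov4. Cores were sliced from the surface downwards in sections of 50 µm. The upper 10% of the sections made SZ, the lower 30% made DZ, and the middle 40% made the middle zone (MZ). About 200 µm was thrown away between zones. Amplified complementary DNA made from 5 ng of total RNA of each zone was hybridised to Affymetrix bovine arrays. Each zone is known from 1 array in each of 2 animals, so the spread rests on 2 values a zone. The bone end of each core was the part held in the mounting block.

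Articular cartilage is built by a single cell type, the chondrocyte, whose work changes with depth. Cells at the surface are flat and make lubricin, which lets the joint glide. Cells of the deep zone stand in columns, make much proteoglycan, and pass into calcified cartilage, where chondrocytes enlarge (hypertrophy), make collagen X and support mineral deposition. Below the calcified layer lies bone with its osteoblasts, osteoclasts, vessels and marrow. Adult cartilage itself has no vessels.

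Expression values are log2, so 1 unit stands for a 2-fold difference, and every difference is SZ minus DZ, with the limma standard error (SE) and the adjusted p over all probesets. Pairs of values are given with replicate 1 first. By the brightest probeset of each gene, 377 of 11626 genes passed at an adjusted p of 0.05 (3.24%), 115 higher in SZ (0.989%) and 262 lower (2.25%). Over probesets the counts were 660 of 24016 (2.75%), with 247 higher (1.03%) and 413 lower (1.72%). Genes lower at the surface therefore outnumbered those higher there in this test. The median difference was −0.01 over all genes and 0.06 over all probesets. The median difference was 2.26 over the called genes higher in SZ and −2.33 over those lower, and the smallest called difference had a size of 1.22. Differences over 4 units in size were called for 13 genes higher and 27 lower.

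The animals can also be read without a model. Both animals differed by more than 1 unit in the same direction for 212 genes higher in SZ (1.82%) and 442 genes lower (3.8%). All 377 called genes were among these. A smaller set differed by more than 3 units in both animals, 17 genes higher and 49 lower. The arrays of the zones did not overlap for 22.7% of genes higher in SZ and 23.4% lower, so a lack of overlap between 2 and 2 arrays is common by itself. In 24 genes (0.206%) the animals differed by more than 1 unit in opposite directions. The 2 animals' differences correlated across the 11626 genes with r of 0.58, which describes these arrays, since genes are not independent replicates. The SD of the differences was 0.88 in replicate 1 and 0.81 in replicate 2.

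**Figure D1:**
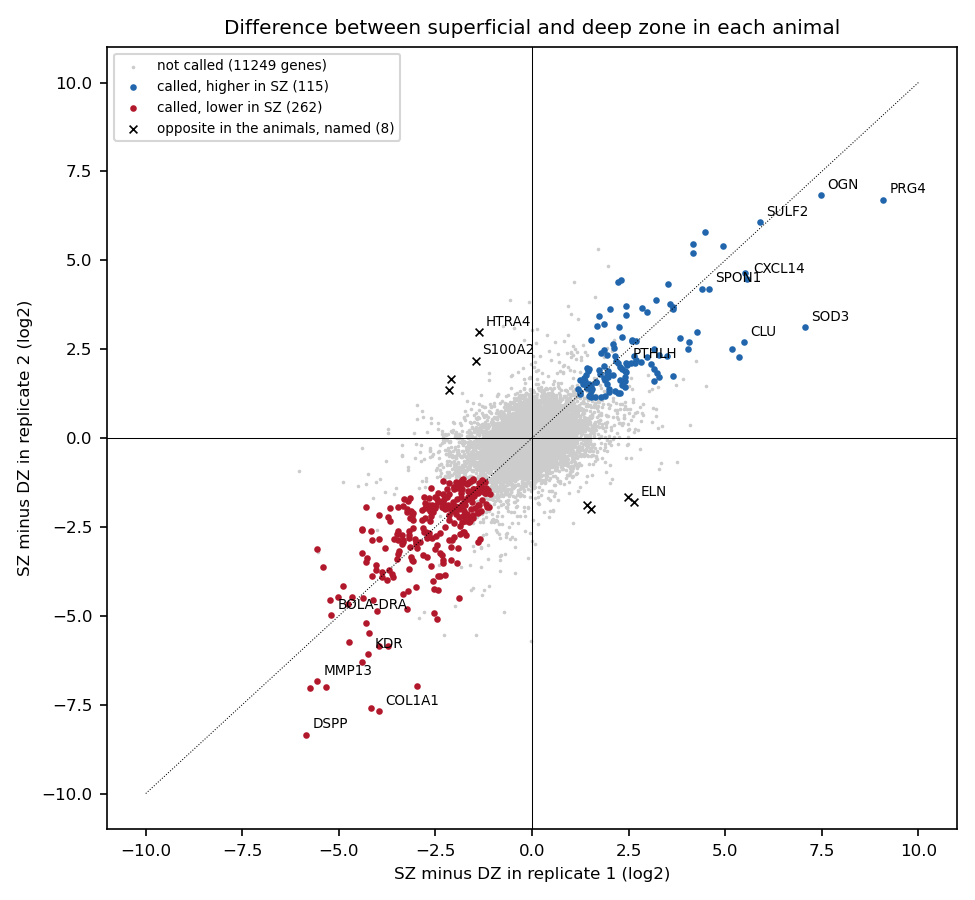
Difference between SZ and DZ for each gene in replicate 1 (horizontal axis, log2) and replicate 2 (vertical axis, log2), with 1 point per gene. Blue points are the 115 called genes higher in SZ, red points the 262 lower, grey points the genes not called and crosses 8 genes that went opposite ways. PRG4 and OGN lie farthest to the upper right and DSPP, COL1A1 and MMP13 far to the lower left.

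The arrays of both zones carried chondrocyte genes near their highest values, which lay between 13.73 and 14.15, and genes of bone read higher in the deep ones. COL2A1, the fibril collagen of cartilage, read 13.86 and 13.69 in SZ and 14.02 and 14.15 in DZ. That probeset differed by −0.31, and the dimmer probesets of COL2A1 by −0.79 to −1.34, none of which passed. ACAN, the aggrecan core protein, read 13.18 and 12.12 in SZ and 13.24 and 13.05 in DZ, and neither gene passed. COL1A1, the main collagen chain of bone, read 9.09 and 5.75 in SZ and 13.05 and 13.43 in DZ, and the zones did not overlap. Its MZ arrays read 5.98 and 4.95. On the SZ array of replicate 1, COL1A2 and COL10A1 read 7.64 and 8.12, against 2.95 and 3.52 on the MZ array of that replicate. DSPP went the other way, at 2.49 against 2.74. Why that SZ array read higher than MZ was not tested. Array medians lay between 4.42 and 4.46 and lower quartiles between 2.71 and 2.87. A value under the lower quartile is taken here as near the floor, and the size of such a difference is uncertain. An array of the lower zone read that low for 18 of the 115 called genes higher in SZ and for 69 of the 262 lower. Technical readings also moved with the zone. The median of 24 Bacillus control probesets was 6.23 and 6.44 in SZ against 3.90 and 3.68 in DZ, and the 3' minus 5' value of cyclophilin was 2.24 and 1.69 against 3.30 and 2.54. The DZ array of replicate 1 stood apart from the rest. Its bioB control probesets had a median of 6.79, against 9.38 in the other DZ array and 9.90 to 10.85 in SZ and MZ, and its 3' minus 5' value of EF1A was −4.82 against −3.24 to −3.93. Without that array 337 probesets were called in place of 660, 238 of them shared. A code in the sample description is shared by the SZ and MZ arrays and differs in the DZ arrays, so code and zone cannot be told apart. The part of the control readings in the differences was not tested.

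The 15 called genes with the largest smaller animal difference towards SZ included several secreted matrix and signalling proteins. OGN encodes osteoglycin, a small leucine-rich proteoglycan of the collagen matrix, and read 9.51 and 10.88 in SZ and 2.04 and 4.05 in DZ. Its animals differed by 7.47 and 6.82, and the DZ array of replicate 1 was near the floor. PRG4, the gene of lubricin, had differences of 9.09 and 6.71 in the 2 animals. SULF2, which removes sulfate groups from heparan sulfate outside the cell, read 10.21 and 9.24 in SZ and 4.32 and 3.15 in DZ. It had almost the same difference in the animals, 5.89 and 6.08 (fitted 5.99, SE 0.29, adjusted p = 0.00347). SPON1 (spondin), an adhesive matrix protein, read 8.87 and 8.86 in SZ and 4.28 and 4.66 in DZ (4.39, SE 0.25, adjusted p = 0.00395). BMPER, a secreted modulator of bone morphogenetic proteins (BMPs), read 9.69 and 9.84 in SZ and 4.18 and 5.21 in DZ (5.07, SE 0.46, adjusted p = 0.00719). The zones did not overlap in these genes, but the genes were picked for large differences in both animals, so their choice favours this. The chemokine gene CXCL14 read 8.08 and 6.65 in SZ but 2.53 and 2.18 in DZ, at the floor.

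Further genes of this leading set act inside the cell. PDE3B, a phosphodiesterase that breaks down cyclic AMP, read 7.86 and 8.06 in SZ and 3.46 and 3.87 in DZ, with animal differences of 4.40 and 4.19. KCNMB4, a regulatory subunit of the large-conductance potassium channel, read 7.32 and 7.95 in SZ and 3.68 and 4.28 in DZ. Its animals differed by 3.65 and 3.68, and its other probeset also differed by 3.68. AKR1C4, an aldo-keto reductase, read 5.85 and 6.04 against 2.20 and 2.42, the DZ values being near the floor. PLEKHB2, a membrane-binding protein with a pleckstrin homology domain, read 10.85 and 11.22 in SZ and 7.26 and 7.44 in DZ (3.68, SE 0.23, adjusted p = 0.00395). FABP3, a fatty acid carrier, read 7.10 and 8.31 in SZ and 3.58 and 3.97 in DZ (3.93, SE 0.36, adjusted p = 0.00733). A dimmer probeset of FABP3 differed by −0.09. The metallothionein MT1A, the matrix gene HMCN1, THBS4 and CLCA2 make up the rest of the 15 highest by this rule, with the smaller animal difference from 4.15 for HMCN1 to 4.93 for THBS4.

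The genes lowest in SZ in both animals mixed genes of mineralising tissue with genes known from elsewhere. DSPP, a phosphoprotein gene of dentin and bone, read 2.49 and 2.36 in SZ and 8.33 and 10.70 in DZ. MMP13, a collagenase of hypertrophic chondrocytes and osteoblasts, read 4.32 and 2.28 in SZ and 9.89 and 9.12 in DZ. Both genes were near the floor in at least 1 SZ array and high in both DZ arrays. SERPINA1, the protease inhibitor alpha-1 antitrypsin, read 8.19 and 7.37 in SZ and 12.93 and 13.12 in DZ (−5.24, SE 0.37, adjusted p = 0.00417). Both SZ arrays were well above the floor, and the zones were far apart. F13A1, the catalytic chain of the transglutaminase factor XIII, read 5.71 and 5.88 in SZ and 10.95 and 10.44 in DZ (−4.90, SE 0.30, adjusted p = 0.00395), and its other probesets differed by −5.11 and −5.24. CPE, a carboxypeptidase that processes peptide hormones, read 4.0 and 3.56 in SZ and 8.37 and 8.07 in DZ (−4.44, SE 0.30, adjusted p = 0.00395).

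PLS1, an actin-bundling plastin, read 3.22 and 2.80 in SZ against 7.98 and 7.48 in DZ. BFSP1, a filament protein best known from the lens, read 2.25 and 1.90 in SZ and 6.90 and 6.38 in DZ. VAV3, an exchange factor for small GTPases, read 2.11 and 2.81 in SZ and 7.13 and 7.27 in DZ. In all 3 genes the DZ arrays lay close together and an SZ array was near the floor. For BFSP1 and VAV3 the MZ arrays were already high, at 5.71 and 4.48 and at 6.35 and 5.53, whereas PLS1 in MZ read 2.53 and 2.39. BRB, a secreted ribonuclease of cattle, read 3.42 and 3.55 in SZ and 7.72 and 8.76 in DZ (−4.76, SE 0.32, adjusted p = 0.00395). The broad protease inhibitor gene A2M read 3.78 and 3.03 in SZ and 8.19 and 9.32 in DZ (−5.35, SE 0.55, adjusted p = 0.0106).

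**Figure D2:**
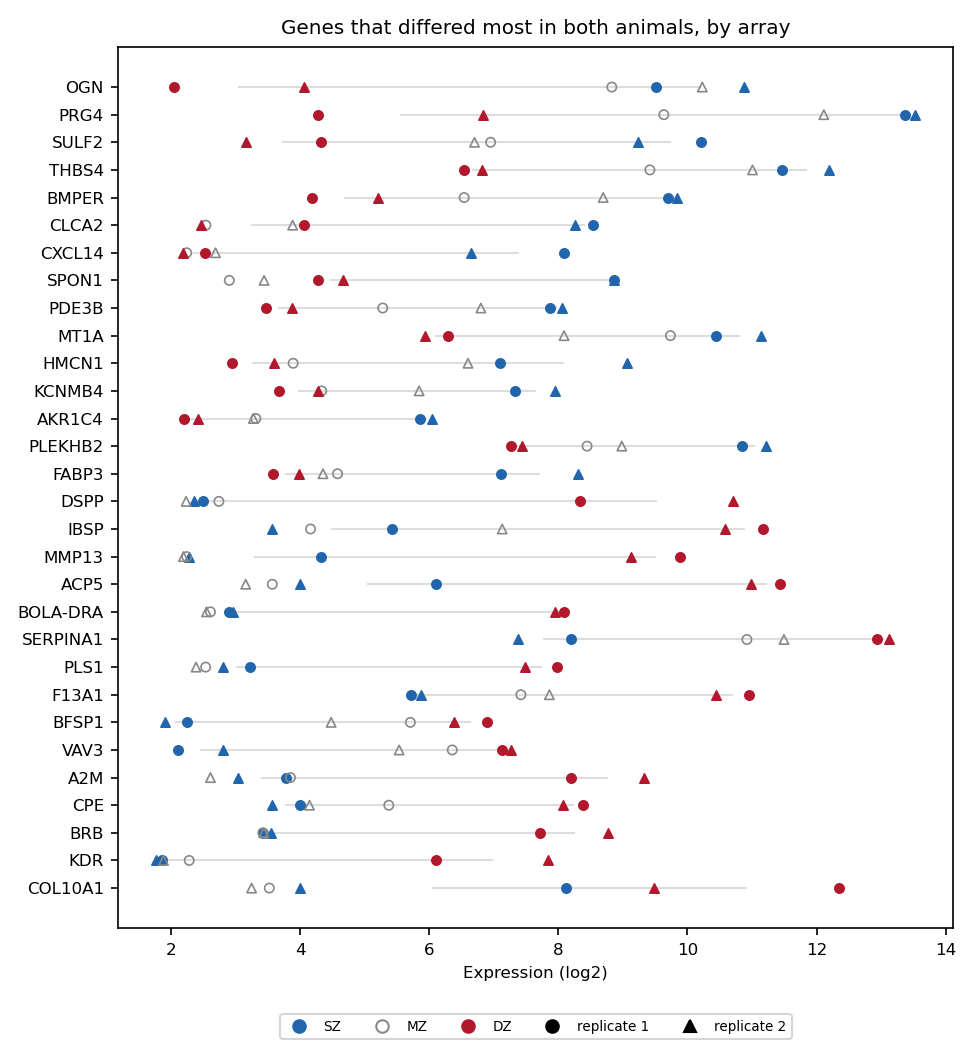
Log2 expression (horizontal axis) on each array for the 15 called genes highest and the 15 lowest in SZ by the smaller animal difference. Blue is SZ, open grey MZ and red DZ, circles are replicate 1 and triangles replicate 2. The SZ and DZ symbols are apart in every row, from OGN at the top to COL10A1 at the bottom. The genes were picked by the size of this difference.

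Genes of the extracellular matrix went both ways, within most of the lists as well. The counts of this and every later list stand beside 0.989% higher and 2.25% lower over all genes. A list with 1 or 2 called members says little about its function. Of 33 measured matricellular and adhesive matrix genes, 6 were higher, 1 lower and 26 did not pass (median 0.11). Those higher were THBS4, HMCN1, SPON1, the fibroblast matrix gene CCN5, TNC (tenascin C) and NID2, a basement membrane nidogen. NID2 read 10.12 and 9.87 in SZ and 8.25 and 8.18 in DZ, while its relative NID1, the member that was lower, read 1.90 and 1.94 in SZ and 4.90 and 6.12 in DZ. The 2 nidogens thus differed in opposite directions, by 1.78 (SE 0.24, adjusted p = 0.02) and −3.59 (SE 0.41, adjusted p = 0.0129). NID1 was near the floor in both SZ arrays, so the size of its difference is uncertain. CCN5 read 4.53 and 7.27 in SZ and 2.52 and 3.65 in DZ, with an SZ spread larger than the gap between the zones in replicate 1. Of 15 network and fibrous collagens 1 was higher, COL15A1 at 11.29 and 11.45 against 7.79 and 9.14, and 2 were lower, COL1A1 and COL1A2 (list median −0.19). COL1A2 read 7.64 and 5.19 in SZ and 11.79 and 12.77 in DZ, so the animals differed by −4.16 and −7.58.

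Of 6 cartilage collagens 1 was lower, COL9A2, a collagen on the fibril surface, and 5 did not pass (median −0.86). COL9A2 read 7.73 and 6.68 in SZ and 9.13 and 8.77 in DZ. COL9A1 and COL11A2 had differences of −1.66 and −1.40 without passing (adjusted p = 0.0571 and 0.0596). Among 11 small leucine-rich proteoglycans OGN was higher and 2 were lower (median 0.04). LUM (lumican) read 7.87 and 5.23 in SZ and 9.77 and 9.73 in DZ, and CHAD (chondroadherin), a cell-binding cartilage protein, 10.84 and 10.41 against 12.50 and 12.61. DCN (decorin) read 12.84 and 12.79 in SZ and 11.17 and 12.44 in DZ and did not pass (1.01, SE 0.37, adjusted p = 0.235). Of 15 elastic fibre genes EFEMP1 (fibulin 3) was higher, at 5.87 and 7.04 against 3.44 and 3.33, and MFAP4 lower, at 4.49 and 5.08 against 7.12 and 8.69 (median 0.39).

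Hyaluronan, the long polysaccharide that carries aggrecan, has its own receptors and synthases, and 3 of these were lower in SZ while PRG4 was higher, among 12 measured genes of lubrication and hyaluronan (median 0.02). CD44, the cell-surface hyaluronan receptor, read 4.35 and 3.87 in SZ and 6.83 and 6.62 in DZ (−2.61, SE 0.23, adjusted p = 0.00605). In MZ it read 2.52 and 2.24, lower than in either end zone. LYVE1, a hyaluronan receptor known from lymphatic vessels and macrophages, read 2.48 and 2.18 in SZ, near the floor, and 4.23 and 4.82 in DZ. The synthase HAS3 read 4.14 and 4.12 in SZ and 5.76 and 5.35 in DZ, but differed by 0.14 in the dCHIP table.

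Several cartilage matrix genes outside these lists, named after their values were seen, were lower in SZ. COLGALT2, which adds galactose to collagen, read 7.96 and 7.37 in SZ and 11.85 and 11.28 in DZ, with animal differences of −3.89 and −3.91 (fitted SE 0.25, adjusted p = 0.00395). OLFML3, a secreted olfactomedin-domain protein, read 4.97 and 4.23 in SZ and 8.60 and 8.06 in DZ (−3.73, SE 0.28, adjusted p = 0.00467). MIA, a secreted protein of chondrocytes, read 10.40 and 9.39 against 12.19 and 12.03, and the cartilage lectin CLEC3A 8.95 and 9.76 against 11.73 and 11.72. All 4 genes were apart in both animals, as was every called gene. TMEM119, a membrane protein of bone-forming cells, read 7.01 and 7.07 in SZ and 10.00 and 10.06 in DZ (−2.99, SE 0.22, adjusted p = 0.00458). PTX3, a pentraxin that organises hyaluronan and binds complement, read 2.61 and 2.15 in SZ, near the floor, and 6.65 and 5.87 in DZ. In the opposite direction, SCARA3, a scavenger receptor family gene, read 7.87 and 9.0 in SZ and 3.61 and 6.03 in DZ. PLA2R1, a phospholipase receptor, read 7.02 and 6.08 in SZ and 4.04 and 3.81 in DZ (2.63, SE 0.26, adjusted p = 0.00939).

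Enzymes that build and sulfate glycosaminoglycans, the sugar chains of proteoglycans, differed in few members. Of 24 measured, SULF2 and UST were higher, CHST11 was lower and 21 did not pass (median 0.01). CHST11, which sulfates chondroitin, read 6.31 and 4.90 in SZ and 10.11 and 7.99 in DZ (−3.45, SE 0.27, adjusted p = 0.00485), although a dimmer probeset differed by −0.48. UST, which sulfates uronic acid residues, read 6.40 and 5.80 in SZ and 4.42 and 4.42 in DZ (1.68, SE 0.30, adjusted p = 0.0493) and was called in 2 of the 10 alternative fits that measured it. Of 37 genes of collagen modification and secretion 1 passed, PLOD1, a lysyl hydroxylase, at 8.39 and 7.46 in SZ against 9.78 and 8.86 in DZ (list median −0.26). A dimmer probeset of PLOD1 differed by 0.14. PCOLCE, an enhancer of procollagen processing, had the lowest value of that list at −3.90 and did not pass (adjusted p = 0.0603). On other sugar chains, ST8SIA1, a sialyltransferase of ganglioside synthesis, was higher in SZ, at 7.25 and 7.56 against 4.28 and 4.01 (3.26, SE 0.28, adjusted p = 0.00581). ST3GAL5, which acts earlier in the same pathway, was lower, at 3.06 and 3.64 against 4.66 and 5.20, though a dimmer probeset differed by 0.11.

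Genes of chondrocyte hypertrophy had the lowest median of the function lists. Of 10 measured, 6 were lower in SZ, 0 were higher and the remaining 4 missed the threshold. The list median was −3.53, with −3.89 in replicate 1 and −3.08 in replicate 2. COL10A1, the collagen of hypertrophic cells, read 8.12 and 3.99 in SZ and 12.34 and 9.48 in DZ. The SZ array of replicate 1 was thus less than 2 units below the DZ array of replicate 2, while within each animal the difference was −4.23 and −5.49. MEF2C, a transcription factor of hypertrophy, read 6.25 and 6.02 in SZ and 10.01 and 10.01 in DZ (−3.88, SE 0.24, adjusted p = 0.00395), and 8.30 and 7.87 in MZ. Of 20 genes of phosphate and pyrophosphate handling in mineralisation, 4 were lower (DSPP, IBSP, SMPD3 and ALPL) and 0 higher (median −0.44). IBSP, bone sialoprotein, read 5.42 and 3.56 in SZ and 11.17 and 10.58 in DZ. ALPL, the phosphatase that frees phosphate from pyrophosphate, read 4.72 and 3.88 in SZ and 8.75 and 7.46 in DZ. SMPD3, a sphingomyelinase needed for skeletal mineral, read 7.30 and 6.24 in SZ and 10.53 and 11.06 in DZ (−4.03, SE 0.42, adjusted p = 0.0107).

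Inhibitors of mineral did not pass. ANKH, which exports pyrophosphate, read 10.08 and 10.72 in SZ and 8.37 and 9.66 in DZ (1.39, SE 0.26, adjusted p = 0.0555). ENPP1, which makes pyrophosphate, had a difference of −0.01. MGP, the matrix Gla protein, read 12.40 and 12.43 in SZ and 12.29 and 9.76 in DZ, so the zones were alike in replicate 1 and far apart in replicate 2. PPA1, an intracellular pyrophosphatase named after its values were seen, read 7.47 and 6.80 in SZ and 11.64 and 9.43 in DZ (−3.40, SE 0.41, adjusted p = 0.0158). Some bone cell markers were lower in SZ too, and IBSP and ALPL are members of both lists. The mean over 11 measured osteoblast and osteocyte markers was 6.32 and 5.45 in SZ and 8.39 and 8.70 in DZ, with 5 lower (IBSP, COL1A2, COL1A1, ALPL and PDPN), 0 higher and 6 that did not pass. The part of bone cells in the mineralisation genes was not tested. In pieces of tissue fewer cells of a type and less RNA per cell cannot be told apart, and this holds for every list described here.

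Parathyroid hormone-related protein (PTHLH) holds chondrocytes back from hypertrophy through its receptor PTH1R, in a loop with Indian hedgehog (IHH). Between SZ and DZ the ligand and the receptor differed in opposite directions. PTHLH read 6.23 and 6.25 in SZ and 3.79 and 4.19 in DZ (2.26, SE 0.33, adjusted p = 0.0266), and its MZ arrays, at 7.33 and 6.55, read above both SZ arrays. PTH1R read 6.14 and 4.63 in SZ and 9.35 and 8.93 in DZ (−3.76, SE 0.32, adjusted p = 0.00546). IHH read 3.57 and 3.28 in SZ and 8.47 and 4.51 in DZ, was high in 1 DZ array, and did not pass (adjusted p = 0.116). BOC, a hedgehog co-receptor, was higher in SZ, at 7.44 and 8.22 against 5.16 and 6.23. Of the 10 measured genes of this list 2 were higher, 1 lower and 7 did not pass (median 0.27).

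Few WNT and BMP signalling genes were called, among them secreted antagonists, a receptor and a target gene. Of 26 WNT genes 2 were higher and 1 lower (median −0.06). The secreted antagonist FRZB read 6.83 and 6.39 in SZ and 10.98 and 10.28 in DZ, with MZ at 10.90 and 9.74, close to DZ. SFRP1, of the same family, read 9.84 and 8.16 in SZ and 6.19 and 6.41 in DZ, and AXIN2, a common WNT target, 6.36 and 6.43 against 3.27 and 4.33. FRZB and SFRP1 therefore differed in opposite directions, by −4.02 (SE 0.27, adjusted p = 0.00395) and 2.69 (SE 0.44, adjusted p = 0.038). Of 31 BMP and TGF-beta genes BMPER was higher and the endothelial receptor ACVRL1 lower, at 2.78 and 1.84 in SZ against 4.14 and 4.68 in DZ (list median 0.03). ACVR1B, an activin receptor outside the list, read 3.48 and 4.92 in SZ and 6.98 and 8.33 in DZ (−3.45, SE 0.39, adjusted p = 0.0133).

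The 40 measured growth factor genes and receptors held 3 higher in SZ and 5 lower (median 0.02). PTN (pleiotrophin), a heparin-binding growth factor, read 7.71 and 8.27 in SZ and 5.85 and 5.06 in DZ, FGFR2, a fibroblast growth factor receptor, 9.83 and 10.55 against 7.41 and 8.84, and IGFBP6, which binds insulin-like growth factors, 8.01 and 7.75 against 5.57 and 5.64. The 4 other probesets of FGFR2 differed by 1.84 to 2.78. ANGPTL7, an angiopoietin-like protein, read 6.37 and 6.24 in SZ and 10.09 and 8.46 in DZ. IGFBP3, ANGPT1 and MDK were also lower, and IGFBP3 was near the floor in SZ, at 1.86 and 2.08. MDK was called in 4 of 10 alternative fits and ANGPT1 in 5 of 10.

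Neuropeptide and peptide receptor genes outside the lists, named after their values were seen, were among those that differed. GAL (galanin) read 7.20 and 7.78 in SZ and 4.90 and 3.33 in DZ (3.37, SE 0.56, adjusted p = 0.039). NMB (neuromedin B) read 6.26 and 6.29 in SZ and 3.69 and 3.52 in DZ (2.67, SE 0.25, adjusted p = 0.0076), but did not pass in the dCHIP table (adjusted p = 0.601). The peptides were higher at the surface, and the neural secreted genes NELL2 and NRN1 were lower there. NELL2 read 2.91 and 3.11 in SZ and 5.88 and 6.20 in DZ (−3.03, SE 0.28, adjusted p = 0.00733), and NRN1 4.08 and 3.22 against 6.86 and 5.06. SORT1 (sortilin), a sorting receptor that binds neuropeptides and growth factor precursors, read 6.78 and 6.34 in SZ and 3.62 and 4.40 in DZ (2.55, SE 0.34, adjusted p = 0.02).

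Of 20 genes of guidance cues and their receptors 2 were higher and 2 lower (median −0.01). ROBO1, a receptor of SLIT proteins, read 8.05 and 8.44 in SZ and 4.88 and 6.83 in DZ. The netrin gene NTN4 read 3.79 and 4.82 in SZ and 1.93 and 2.35 in DZ, which is near the floor. UNC5B, a netrin receptor, and PLXND1, a semaphorin receptor, both known from vessels, were lower, by −1.98 and −1.81. Of 13 Notch genes 0 were higher and 2 lower (median −0.49). LFNG, a sugar transferase that modifies Notch, read 7.47 and 8.37 in SZ and 10.55 and 10.68 in DZ, with another probeset at 0.06, and the Notch target HEYL read 3.28 and 3.52 against 5.77 and 5.41.

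Subunits of ion channels differed in opposite directions between the zones. KCNMA1, the pore of the channel that KCNMB4 regulates, was lower in SZ, at 7.41 and 6.99 against 9.22 and 8.94 (−1.88, SE 0.23, adjusted p = 0.0165), and its other probesets differed by −1.09, −1.49 and −1.17. The regulatory subunit KCNMB4 was higher by 3.66 (SE 0.30, adjusted p = 0.00546). KCNQ3, a voltage-gated potassium channel, was higher, at 7.31 and 6.06 in SZ against 3.48 and 3.24 in DZ (3.33, SE 0.37, adjusted p = 0.0127). KCNK5, a background potassium channel, read 4.30 and 3.78 in SZ and 9.20 and 7.96 in DZ (−4.54, SE 0.37, adjusted p = 0.00544). The animals were alike for KCNK5, at −4.90 and −4.17. SLC8A3, which exchanges sodium for calcium, read 5.54 and 4.26 in SZ and 9.55 and 9.11 in DZ (−4.43, SE 0.28, adjusted p = 0.00395). The chloride channel accessory gene CLCA2 read 8.54 and 8.25 in SZ and 4.05 and 2.46 in DZ. SLC5A3, which imports the osmolyte inositol, read 7.49 and 7.38 in SZ and 9.79 and 9.18 in DZ. Of 35 genes listed for channels and osmotic regulation 1 was higher (CLCA2), 3 lower (KCNK5, SLC5A3 and KCNMA1) and 31 did not pass (median −0.19). KCNMB4, KCNQ3 and SLC8A3 were outside that list.

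PDE4B, ADCY2, GNAI1 and PKIB act in cyclic AMP signalling like PDE3B and were picked because they were called, so they do not stand for that pathway as a whole. PDE4B, another phosphodiesterase of cyclic AMP, read 6.04 and 6.43 in SZ and 8.57 and 8.11 in DZ (−2.10, SE 0.32, adjusted p = 0.0321). The 2 phosphodiesterases thus differed in opposite directions between SZ and DZ. ADCY2, an adenylyl cyclase, read 4.24 and 4.33 in SZ and 7.62 and 7.07 in DZ (−3.05, SE 0.34, adjusted p = 0.0126). GNAI1, the alpha subunit of an inhibitory G protein, read 3.02 and 4.06 against 6.49 and 6.92, and PKIB, an inhibitor of protein kinase A, 3.23 and 3.56 against 5.40 and 5.44. In MZ, ADCY2, PDE4B and PKIB read near their DZ level, ADCY2 at 7.87 and 6.70, whereas GNAI1 read 3.00 and 3.38, near its SZ level.

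Of 39 genes of the actin cytoskeleton 1 was higher (GFAP, an intermediate filament gene) and 2 lower (PLS1 and the cross-linker ACTN1), with a median of −0.18. GFAP read 5.86 and 6.51 in SZ and 2.58 and 4.78 in DZ. Regulators of small GTPases, switches that control cell shape and movement, were named after their values were seen and went both ways. KALRN and FGD5, exchange factors of small GTPases, were higher in SZ, KALRN at 5.52 and 6.17 against 2.31 and 2.28, and FGD5 at 6.76 and 7.07 against 4.83 and 4.72. KALRN was near the floor in DZ. GEM and RERG, small GTPases, read 7.01 and 7.27 against 4.42 and 4.53, and 8.53 and 8.77 against 4.50 and 6.27. These 4 genes did not overlap between the zones, but they were picked because they were called. Over all genes 22.7% did not overlap with SZ higher. PAK1, a kinase driven by Rac, was lower in SZ, at 2.83 and 2.61 against 6.40 and 5.44 (−3.20, SE 0.27, adjusted p = 0.00546). Dimmer probesets of PAK1 differed by −0.83 and −1.57 and did not pass. ARHGAP18, which switches small GTPases off, read 3.33 and 3.96 against 6.07 and 6.61 (−2.69, SE 0.23, adjusted p = 0.00601), and RASAL2, which switches Ras off, 2.74 and 3.47 against 6.23 and 6.18. RASIP1, DOCK10, ARHGEF15, RIN3 and RND3 were also lower, by −2.51 to −3.31, and RND3 was called in 4 of 10 alternative fits. Dimmer probesets differed by −0.23 and 0.07 for RASIP1, by 0.10 for ARHGEF15 and by −0.35 for DOCK10. RASIP1 was near the floor in SZ, at 2.35 and 2.58.

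Of 40 integrin and adhesion genes 8 were lower in SZ and 0 higher, and the median was −0.38. Over all genes 2.25% were lower and 0.989% higher. CDH2, N-cadherin, read 3.76 and 2.55 in SZ and 6.22 and 7.65 in DZ. MCAM, an adhesion molecule of pericytes and vessels, read 3.42 and 3.31 in SZ and 7.56 and 6.18 in DZ (−3.51, SE 0.36, adjusted p = 0.0107). CADM1 read 3.84 and 5.43 against 8.13 and 7.38, and the heparan sulfate proteoglycan GPC1 5.78 and 4.90 against 8.86 and 7.44. GJA1, the main gap junction protein of bone and cartilage cells, read 9.01 and 8.81 in SZ and 10.10 and 10.39 in DZ, and another probeset differed by 0.34. Vessel markers were lower in SZ beside these genes. Over 16 measured endothelial markers the mean was 3.75 and 3.70 in SZ and 4.75 and 5.91 in DZ, with 4 lower and 0 higher, and their part in the adhesion genes was not tested.

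Genes that handle oxidants and metals were called in 1 direction only, higher in SZ. Of 36 measured antioxidant and metallothionein genes 6 were higher and 0 lower, while 30 missed the threshold. Their median was 0.43 (0.47 in replicate 1 and 0.41 in replicate 2). SOD3, the extracellular superoxide dismutase, read 11.43 and 11.63 in SZ and 4.37 and 8.51 in DZ, so its animal differences of 7.06 and 3.12 were unlike in size. A dimmer probeset of SOD3 differed by 1.67. The metallothionein MT1A read 10.45 and 11.14 in SZ and 6.29 and 5.93 in DZ, and MT2A 11.27 and 11.18 against 8.44 and 9.03. These zinc and copper binding proteins did not overlap between the zones. Over all genes 22.7% did not overlap with SZ higher. SOD2, the mitochondrial dismutase, read 10.84 and 9.49 in SZ and 8.73 and 6.95 in DZ, GSTM3, a glutathione transferase, 7.32 and 7.24 against 5.79 and 5.74, and GCLC, which begins glutathione synthesis, 3.88 and 4.96 against 1.78 and 2.32, near the floor. CHAC1, which breaks glutathione down, was named after its value was seen and was lower in SZ, at 4.98 and 3.96 against 8.09 and 7.39 (−3.27, SE 0.37, adjusted p = 0.0129). Outside the list, the aldehyde dehydrogenase ALDH2 was higher, at 10.68 and 11.17 against 8.51 and 9.0 (2.17, SE 0.27, adjusted p = 0.0173), and so was MAOA, a monoamine oxidase, at 5.96 and 6.37 against 3.68 and 4.74.

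Several genes of amino acid supply were lower in SZ, again named after their values were seen. PSPH, the last enzyme of serine synthesis, read 4.57 and 3.88 in SZ and 7.89 and 5.61 in DZ. SLC6A9, a glycine transporter, read 3.63 and 4.43 in SZ and 7.31 and 6.38 in DZ (−2.82, SE 0.42, adjusted p = 0.0291). SLC7A5, an importer of large neutral amino acids and the 1 called gene of 32 nutrient and metal transporters (list median −0.25), read 5.74 and 6.34 in SZ and 8.88 and 8.40 in DZ. GARS1, the synthetase that charges the glycine transfer RNA, read 8.93 and 8.47 against 10.45 and 9.90, and PCK2, a mitochondrial carboxykinase, 4.66 and 3.49 against 6.34 and 5.21. Both were called in 5 alternative fits. CDO1, which oxidises cysteine, went the other way, at 9.22 and 8.48 in SZ and 6.59 and 6.18 in DZ (2.46, SE 0.29, adjusted p = 0.0147).

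Of 39 genes of lipid and steroid handling 2 were higher and 7 lower in SZ, with a median of −0.80 (−0.98 and −0.52 in the animals). PLTP, which transfers phospholipids between lipoproteins, read 3.64 and 3.84 in SZ and 7.24 and 7.75 in DZ (−3.75, SE 0.25, adjusted p = 0.00395). INSIG1, a sterol sensor of the endoplasmic reticulum, read 5.29 and 5.45 in SZ and 8.48 and 8.06 in DZ (−2.90, SE 0.39, adjusted p = 0.02). FADS2, a fatty acid desaturase, read 7.0 and 5.24 in SZ and 10.23 and 7.23 in DZ, so that the SZ array of replicate 1 was within 1 unit of the DZ array of replicate 2. APOD and APOE, lipid carriers, read 10.42 and 10.51 against 12.66 and 12.50, and 5.85 and 6.21 against 7.07 and 7.74. The cholesterol synthesis genes SQLE and HMGCS1 had differences of −1.46 and −1.58 and did not pass (adjusted p = 0.0693 and 0.178). SLC44A2, a choline transporter-like protein outside the list, read 5.85 and 4.85 in SZ and 9.97 and 9.41 in DZ (−4.34, SE 0.26, adjusted p = 0.00395). A dimmer probeset of SLC44A2 differed by −1.93.

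Proteases and their inhibitors had more members lower in SZ. Of 39 serine, cysteine and other proteases and serpins 7 were lower and 0 higher (median −0.02). Besides SERPINA1, A2M and F13A1, PCSK6, a proprotein convertase, read 4.01 and 4.50 in SZ and 6.59 and 6.40 in DZ, CTSC, a cathepsin, 3.08 and 3.77 against 5.36 and 5.49, and CST3, an inhibitor of cathepsins, 8.18 and 8.34 against 9.92 and 10.67. MME (neprilysin), a membrane peptidase, read 3.27 and 3.57 against 6.61 and 6.42 (−3.09, SE 0.27, adjusted p = 0.00605). SERPINA14, a serpin outside the list, read 3.16 and 2.97 in SZ and 6.63 and 6.24 in DZ (−3.37, SE 0.27, adjusted p = 0.00503). Of 30 metalloproteinases and inhibitors 3 were higher and 2 lower, MMP13 and ADAMTS6 (median −0.16). ADAMTSL4, a matrix protein of the same family without a protease domain, read 10.52 and 10.24 in SZ and 7.95 and 8.14 in DZ, TIMP2 10.74 and 11.32 against 8.78 and 9.49, and MMP16 9.73 and 9.39 against 8.0 and 7.48. MMP9, a gelatinase of osteoclasts, read 2.95 and 3.02 in SZ but 8.98 and 3.95 in DZ and did not pass (adjusted p = 0.213).

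Of 41 inflammatory mediators 4 were higher and 1 lower in SZ (median 0.06). SAA3, an acute-phase protein, read 10.33 and 7.83 in SZ and 6.26 and 5.13 in DZ (3.39, SE 0.39, adjusted p = 0.0134). The prostaglandin receptors PTGER2 and PTGER4 went opposite ways, PTGER2 at 4.77 and 5.89 in SZ against 2.52 and 2.76 in DZ and PTGER4 at 1.82 and 2.23 against 3.31 and 3.66, near the floor in SZ. IL4R, the interleukin receptor, read 8.33 and 8.45 in SZ and 6.90 and 6.49 in DZ. Of 24 complement genes 1 was higher and 3 lower (median −0.02). The protease C1S was higher, at 6.21 and 6.51 against 3.78 and 4.64, whereas C1QA, a chain of the recognition complex made by macrophages, read 2.27 and 1.75 in SZ, near the floor, and 4.33 and 3.82 in DZ. C1QTNF5, a related collagenous protein, read 5.03 and 4.10 in SZ and 7.76 and 6.91 in DZ (−2.77, SE 0.22, adjusted p = 0.00517). C1QA is itself 1 of the 21 leukocyte and macrophage markers, of which 7 were lower in SZ and 14 did not pass, and the part of leukocytes in these genes was not tested. Of 29 interferon-induced genes 1 was lower, IFITM1, by −1.38 (list median −0.41), and it was called in 5 of 11 alternative fits. Dimmer probesets of IFITM1 differed by −0.47 and −0.06.

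Transcription factors of the skeleton and limb had 1 member higher and 5 lower of 31 (median 0.28). FOXO1, a factor of stress resistance and autophagy, was higher in SZ, at 6.97 and 7.43 against 5.46 and 4.68 (2.13, SE 0.37, adjusted p = 0.0421). FOXA3 read 6.95 and 7.65 in SZ and 9.85 and 10.56 in DZ, with the same difference of −2.91 in both animals, and its relative FOXA2 read 4.19 and 3.94 against 8.58 and 6.51. Both of these forkhead factors are known to drive hypertrophy genes in mice. MSX1 and DLX5, homeobox factors, were lower by −1.95 and −1.73. EBF1 was lower too, at 4.68 and 6.02 against 7.12 and 7.56. HOPX and FHL1, regulators of transcription outside the list, were higher, HOPX at 9.99 and 10.34 against 7.56 and 6.89 and FHL1 at 10.50 and 9.58 against 7.23 and 7.25. Of 40 immediate-early and stress genes 5 were lower and 0 higher (median −0.25): KLF15, TRIB1, CRYAB, GADD45B and KLF6. GADD45B, a growth arrest gene, read 9.03 and 9.36 in SZ and 11.87 and 11.38 in DZ. Of 42 cell cycle genes the kinase inhibitor CDKN1A and the cyclin CCND3 were lower, by −1.65 and −1.40, and 40 did not pass (median −0.18).

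Some groups gave no called gene in either direction. Of 33 hypoxia and glycolysis genes 0 passed by limma's adjusted p, 7 at an unadjusted p under 0.05, and the median was 0.08. The same was found for 49 cytosolic ribosomal proteins (median 0.24, range −0.29 to 0.79), 47 genes of the mitochondrial respiratory chain (median −0.09, range −0.71 to 0.60), 28 vesicle and lysosomal genes (median −0.06), 22 S100 proteins and annexins (median 0.29) and 8 circadian clock genes (median 0.18). In the same order 2, 4, 6, 6 and 1 of them had an unadjusted p under 0.05. Of 33 retinoid and nuclear receptor genes 1 was lower, ALDH1A3, which makes retinoic acid, at 3.26 and 3.33 in SZ against 5.57 and 4.91 in DZ (list median 0.04). In these lists a p that missed the threshold does not show that levels were alike. S100A4 had the highest difference among the S100 genes, at 10.31 and 11.33 in SZ against 8.68 and 7.37 in DZ, and did not pass (2.79, SE 0.71, adjusted p = 0.115). The median of the ribosomal list was 0.36 in replicate 1 and −0.00 in replicate 2. Of the 377 called genes, 132 were in the lists and 245 in none.

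**Figure D3:**
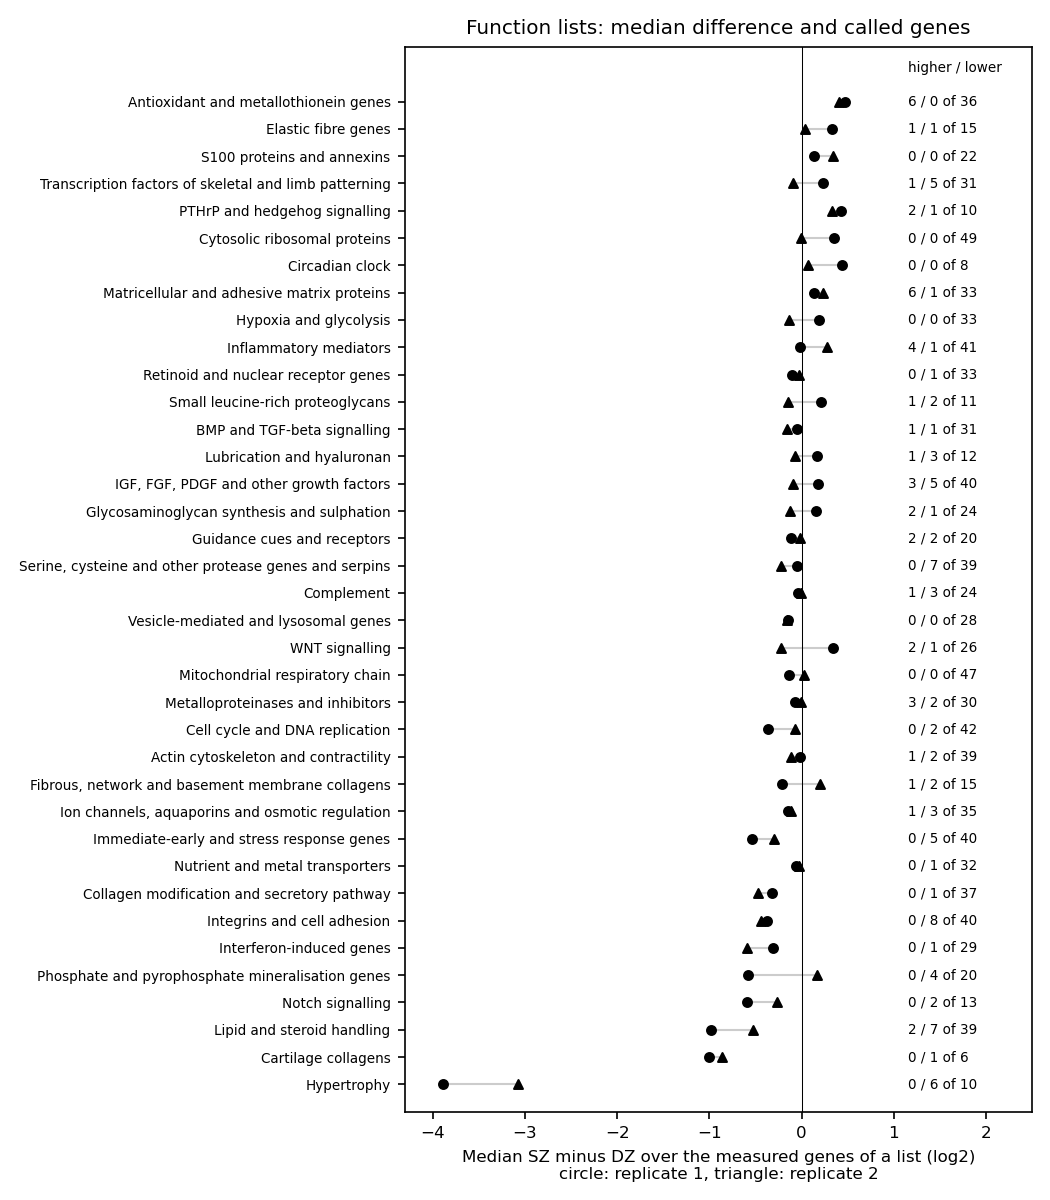
Median difference between SZ and DZ (log2, horizontal axis) over the measured genes of each of 37 function lists, with a circle for replicate 1 and a triangle for replicate 2. The numbers at the right give called genes higher and lower in SZ of those measured. The hypertrophy list lies far left at −3.89 and −3.08, and the antioxidant list is among the highest at 0.47 and 0.41.

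Markers of cells that cartilage lacks were read in the deep slices. The mean of 8 measured osteoclast markers was 5.06 and 5.22 in SZ and 7.63 and 6.67 in DZ, with 2 lower in SZ and 0 higher. ACP5, the acid phosphatase of osteoclasts, read 6.11 and 3.99 in SZ and 11.44 and 10.98 in DZ, and its dimmer probesets differed by −0.17, −2.43 and −4.46. ITGB3, an osteoclast integrin, was near the floor in SZ at 2.20 and 2.53 and read 4.77 and 4.60 in DZ. Of 16 endothelial markers 4 were lower, among them KDR at 1.86 and 1.77 in SZ, the floor, and 6.11 and 7.84 in DZ, and PLVAP at 2.49 and 2.62 against 4.80 and 6.04. Vessel genes named after their values were seen stood likewise, with LMO2 at 2.16 and 2.08 against 4.61 and 5.96 and GNG11 at 1.65 and 2.26 against 5.53 and 6.02. CLEC14A and ECSCR were lower by −3.06 and −2.92. PLVAP, LMO2 and GNG11 were near the floor in both SZ arrays. Another probeset differed by −0.50 for PLVAP and by −0.82 for LMO2, and neither passed. PECAM1 was lower by −3.29, with other probesets at 0.40 and −0.79 that did not pass. The other probesets of KDR differed by −2.67 to −3.65. In KDR, PLVAP, LMO2, CLEC14A and ECSCR the DZ array of replicate 2 was more than 1 unit above that of replicate 1. The mean of 9 pericyte and smooth muscle markers was 4.32 and 4.17 in SZ and 5.28 and 5.15 in DZ, with MCAM and RGS5 lower.

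Of 21 leukocyte and macrophage markers 7 were lower in SZ and 0 higher, and their mean was 3.18 and 3.17 in SZ and 4.44 and 4.30 in DZ. The class II antigen genes stood out among them. BOLA-DRA read 2.89 and 2.95 in SZ and 8.08 and 7.94 in DZ, BOLA-DRB3 1.89 and 2.46 against 6.16 and 5.85, and their chaperone CD74 4.85 and 4.37 against 8.04 and 8.05. All 3 were at a like level in the 2 DZ arrays. BOLA-DRB3 was near the floor in both SZ arrays, as were PTPRC and CD1D. PTPRC, the phosphatase of all leukocytes, read 2.18 and 2.24 in SZ and 4.84 and 4.91 in DZ, with other probesets from −0.95 to 0.04. CD1D, which presents lipid antigens, read 2.19 and 2.58 against 5.33 and 5.94 (−3.25, SE 0.24, adjusted p = 0.00457). LCP1, SRGN, MSR1 and CD84, genes of leukocytes named after their values were seen, were lower by −1.30 to −2.58. LCP1, SRGN and CD84 read under the lower quartile in both SZ arrays, as did MSR1 at 2.46 and 2.40. Other probesets differed by −0.47 and −0.20 for MSR1, −0.94 and −1.39 for CD84 and −1.38 for BOLA-DRB3. None of these passed. Red cell markers gave no call. Their means lay close to the lower quartiles of the arrays, 2.71 to 2.87, in both zones, so they cannot show whether red cells differed. Of 7 measured 0 passed by limma's adjusted p and 0 at an unadjusted p under 0.05, and their mean was 3.12 and 3.10 in SZ and 3.07 and 2.77 in DZ. Of 15 skeletal muscle markers 0 passed by limma's adjusted p and 2 at an unadjusted p under 0.05 (mean 3.61 and 3.70 against 3.58 and 3.42). Of 10 adipocyte markers the complement gene CFD was lower (mean 3.59 and 3.55 against 3.98 and 3.94). Among those 10, 7 had an unadjusted limma p under 0.05, and the differences ran from −2.28 to 0.93.

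Chondrocyte and synovial markers were read in both zones. The mean of 14 measured chondrocyte markers was 10.01 and 9.38 in SZ and 10.29 and 10.39 in DZ, with 3 lower (CNMD, CHAD and COL9A2) and 0 higher. CNMD, chondromodulin, which keeps vessels out of cartilage, read 7.88 and 5.12 in SZ and 11.62 and 10.98 in DZ (−4.80, SE 0.52, adjusted p = 0.0123). It was far apart between the zones in both animals. SOX6, a factor of cartilage identity, read 8.19 and 7.90 against 6.97 and 7.13 without passing (adjusted p = 0.129). Over 11 markers of synovial lining and fibroblasts the mean was 6.12 and 6.10 in SZ and 6.31 and 6.51 in DZ, and CADM1 and PDPN were lower in SZ. PDPN was called in 5 of 11 alternative fits and CADM1 in 5 of 11.

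**Figure D4:**
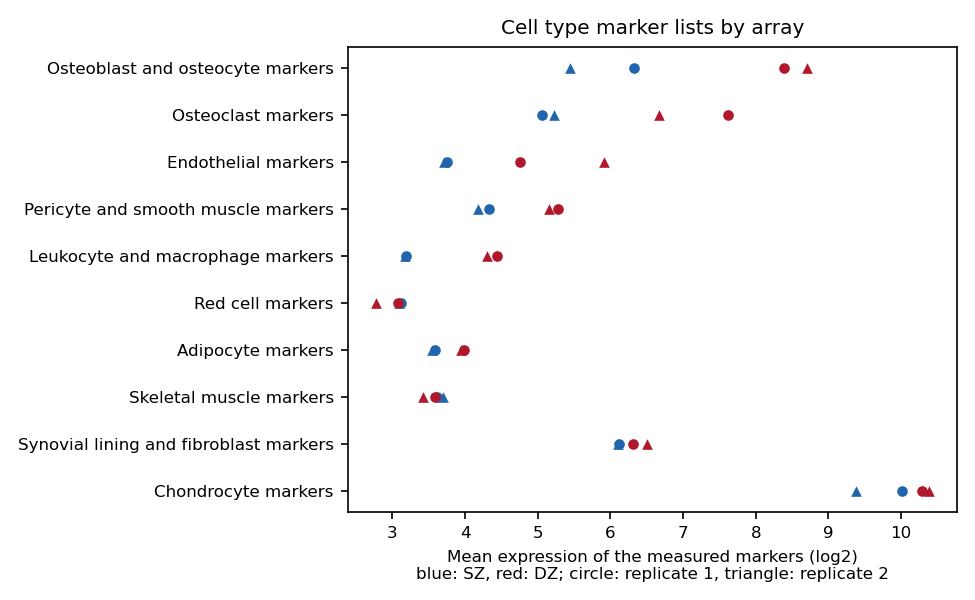
Mean log2 expression (horizontal axis) of the measured markers of each cell type list on each SZ array (blue) and DZ array (red), with circles for replicate 1 and triangles for replicate 2. Both DZ arrays lie above both SZ arrays for 8 lists, those of osteoblast, osteoclast, endothelial, pericyte, leukocyte, adipocyte, synovial and chondrocyte markers, and red cell and skeletal muscle markers lie close together at 2.77 to 3.70.

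The middle zone shows whether a called difference was reached in steps. It was placed for each called gene on a scale where 0 is the DZ level and 1 the SZ level, from the zone means. Of the 115 genes higher in SZ, the MZ mean lay between the end zones for 94, nearer SZ for 48 and nearer DZ for 67 (median position 0.44). Of the 262 genes lower in SZ it lay between for 194, nearer SZ for 161 and nearer DZ for 101, and beyond the SZ level for 63 (median 0.68). OGN and PTHLH are examples of genes still high in MZ, OGN at 8.83 and 10.23. CXCL14 and SPON1 were high in SZ alone, SPON1 at 2.90 and 3.44 in MZ. Among genes lower in SZ, FRZB and BFSP1 were already high in MZ, while BOLA-DRA at 2.61 and 2.55 and MMP13 at 2.24 and 2.19 were low there, as in SZ. The MZ arrays share the description code of the SZ arrays, so for these positions, too, code and zone cannot be told apart. The MZ arrays enter the same model, so the positions are given as a description, with no test.

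**Figure D5:**
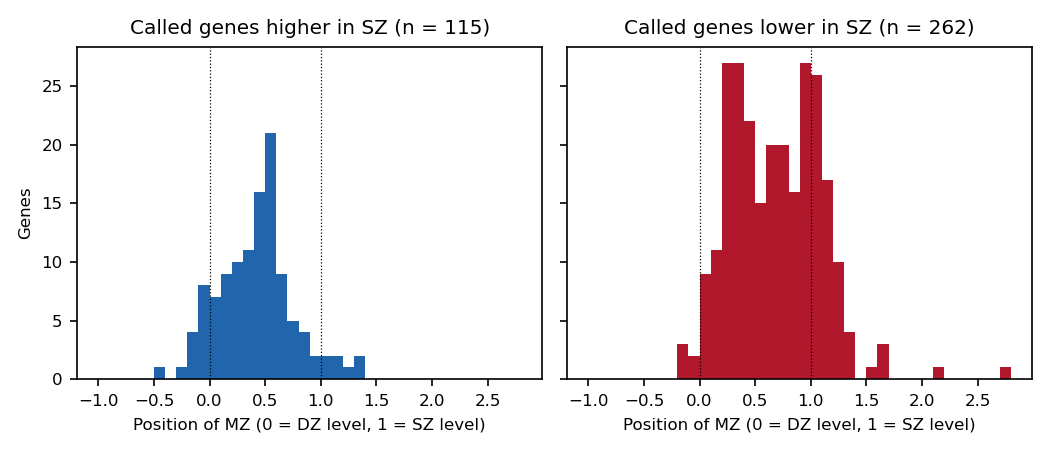
Position of the MZ mean between DZ (0) and SZ (1) on the horizontal axis and number of called genes on the vertical axis, for the 115 genes higher in SZ (left) and the 262 lower (right). The median position is 0.44 at the left and 0.68 at the right, where 63 genes lie beyond 1.

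In a few genes the animals disagreed about the zones. ELN, tropoelastin, read 7.05 and 5.83 in SZ and 4.40 and 7.63 in DZ, so that the animals differed by 2.65 and −1.80. CHRDL1, a BMP antagonist, had differences of 2.47 and −1.66, and SMOC1, a matrix protein that binds calcium, 1.43 and −1.87. HTRA1, a serine protease abundant in cartilage, read 11.67 and 9.83 in SZ and 10.15 and 11.82 in DZ. ELN, CHRDL1, SMOC1 and HTRA1 were thus higher in SZ in replicate 1 and lower in replicate 2. S100A2 went the other way, with −1.45 and 2.17, as did the immediate-early gene FOSB with −2.09 and 1.65, PAMR1 with −2.14 and 1.34 and HTRA4 with −1.37 and 2.97. With 2 animals, a difference between animals and one between samples of an animal cannot be told apart for these genes.

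Calls depended on single arrays and on the handling of the animals. In place of 660 called probesets there were 248 when the SZ array of replicate 1 was left out, 337 and 204 when the DZ array of replicate 1 or 2 was, and 646 when that of SZ replicate 2 was. A model that ignored the animals gave 295, and the dCHIP values gave 1262. Of the 377 called genes, 58 were called in every alternative fit run for them and 104 in 5 or fewer of 11. PRG4, OGN, SULF2, SPON1, KCNMB4, MMP13, F13A1, SERPINA1, MEF2C, FRZB, KCNK5 and SLC8A3 were among those called in each of the 11. Some named genes kept their call in few fits: UST and HAS3 in 2, PTGER4 and MSR1 in 3, ACVRL1, UNC5B, ACTN1, CFD, GJA1, MDK, APOE, ST3GAL5, CD84 and RND3 in 4, and COL9A2, CADM1, C1S, PLOD1, IFITM1, CCND3, PDPN, ANGPT1, DLX5, GARS1 and PCK2 in 5. The highest adjusted p over its alternatives was 0.233 for UST, 0.605 for COL9A1 and 0.796 for HAS3. In the dCHIP table some named genes differed by a size more than 1.5 times from the value given above. OLFML3 differed there by −1.05, SLC6A9 by −1.05, PTPRC by −0.74, CD1D by −1.69, KCNQ3 by 1.84 and GCLC by 1.32. MCAM differed by −2.10, RASIP1 by −1.84, RASAL2 by −1.90, PLVAP by −1.83, ALDH1A3 by −1.23 and BOLA-DRA by −3.31. MSR1 and CD84 differed by −0.83 and −1.02, C1QA by −3.26, NMB by 0.24 and HAS3 by 0.14.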

How the data were processed

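Per the submitters' processing notes the arrays were summarised with RMA (no version given). The values tested are those deposited by the authors on a log2 scale, normalised by them, with 1 value for each probeset on each array. Another deposited log2 matrix, named for dCHIP, gave the gene symbols and an alternative. Other settings of either table are not given in the sources used here, and neither holds detection calls.

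Of 24128 probesets 112 controls were left out and 24016 tested, with no filter. A symbol was given for 17139, of which 971 were updated through RefSeq synonyms (assembly ARS-UCD2.0, 10325 of 11626 symbols found). The brightest probeset by mean over the 6 arrays stood for its gene. No genome build is named, so no coordinates are given. A single limma 3.58.1 model (R 4.3.3) with zone and animal was fitted to all 6 arrays (residual degrees of freedom 2, prior 4.15), and SZ minus DZ was tested two-sided with Benjamini-Hochberg adjustment over 24016 probesets. Per the labels a replicate number stands for an animal, which is why animal is in the model. The p-values rest on how far the 2 animals disagree about the differences among the 3 zones. In limma this spread is mixed with a prior taken from all probesets. Only 2 animals were measured. The number of arrays limits the precision. The fit was also run on simulated data with independent probesets and no animal effect. That run cannot show how the fit behaves with correlated genes or with differences between animals.

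Members and gene lists were chosen with earlier results of these data known. The text names up to 15 called genes each way with the largest smaller animal difference, up to 4 called genes of each list, 8 genes opposite in the animals and a fixed set of cartilage and bone genes. Genes said to be outside the lists, and further list members given with values (such as ANKH, MGP, ENPP1, PCOLCE, SQLE, HMGCS1, S100A4, SOX6, COL9A1, COL11A2, MMP9 and PTGER4), were chosen after their values were seen.

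Alternatives were 13 fits, of which 11 are distinct: no animal block, the SZ and DZ arrays alone, the dCHIP matrix, dim probesets left out (mean log2 under 5), quantile normalisation, an intensity trend or a robust setting in the prior, and each array left out.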

Additional observations from a re-analysis of the deposited data

How the results depend on the processing

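The arrays of a number come from the same animal, so the model carried the replicate block, and with no replicate block 295 probesets were called, 101 higher and 194 lower, all of them among the 660. The dCHIP matrix gave 1262 (503 higher, 759 lower; 557 shared with the 660). Leaving out 1 array gave 204 to 646 called probesets, 70 to 284 higher and 134 to 362 lower. Of 2339 values of 185 named genes over the alternatives, 1809 kept their direction and their side of the threshold, 526 fell short of it, 2 newly passed and 2 reversed: HAS3 at 0.14 in the dCHIP matrix and ACAN at 0.033 without SZ replicate 2 (−1.03 to 0.033 over the arrays left out). The cause was not tested. The counts over named genes and lists take in all 13 alternatives. Among these, each fit without an MZ array repeats that of the SZ and DZ arrays alone. The share of called probesets higher in SZ was 37.4% and ran from 31.2% to 44.0%. Over 611 pairs of list and alternative, list medians moved by less than the SD of the 2 animals' medians in 534. List counts stayed within 1.5 times in 420. Red cell markers had no median without the dim probesets, since none was left. Low signal limits the size of differences near the floor.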
